A study of Mus musculus with 12 samples.

Results

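Collagen chains are the protein subunits of the collagens, the main fibrous proteins of the extracellular matrix. The members described here are the 44 genes, of 41325 in the deposited tables, whose symbol has the form of a collagen alpha chain (Col, a type number, the letter a and a chain number). They comprise 11 fibrillar chains, the 6 chains of the basement membrane collagen type IV and 27 other chains. Poly(A) RNA of mouse liver was sequenced and reads were counted per gene, in 3 groups of 4 libraries from wild-type C57BL/6J mice. In CDDO-Me livers, mice on a diet labelled CDAHFD, a model of nonalcoholic steatohepatitis (NASH), had received CDDO-Me (bardoxolone methyl, a synthetic triterpenoid known to activate the transcription factor NRF2) by mouth at 10 mg/kg for 8 weeks. NASH vehicle livers came from mice on the same diet that received vehicle, and control livers from mice labelled as controls that received vehicle. The stated question is how CDDO-Me protects the liver in this model. CDDO-Me was given only on the diet, so the drug without the diet was not measured. The labels number the libraries of a group without naming animals, so p-values measure the spread between these libraries.

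A collagen molecule is a triple helix of alpha chains, held by glycine at a fixed spacing along each chain. Fibrillar collagens (types I and III, with type V inside the fibrils) form the scar tissue of a fibrotic liver, where activated hepatic stellate cells and portal fibroblasts are known as their main source. Type IV forms the sheet of basement membranes under epithelia and around vessels. The other collagens include the beaded filaments of type VI, network collagens such as type VIII, the FACIT collagens that attach to fibrils, transmembrane collagens, and the multiplexins (types XV and XVIII), whose helix is interrupted many times. In the GENCODE transcripts the longest unbroken run of triplets that begin with glycine sets the fibrillar chains apart. It was 338 triplets in Col1a1, 344 in Col3a1, 337 in Col5a3, 217 in Col27a1 and 216 in Col24a1. The 6 type IV chains had 39 to 66. The other chains spanned that range, from 23 in Col26a1 to 113 in Col9a1. Among them Col13a1 had 44, and Col15a1 and Col18a1 had 30 each.

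Upstream sequence is shown for chains that stand for the patterns described below: Col3a1, Col5a1 and Col6a3, which fell in CDDO-Me relative to NASH vehicle livers, Col5a3, whose groups overlapped, and Col13a1, which rose. Each run is the 250 bases before the RefSeq start site (build GRCm38.p6), read 5′ to 3′ on the strand of the gene, and none of the windows holds an annotated exon. Capitals mark matches, on either strand, to 5 motifs, which are the CCAAT box, the GC box GGGCGG, the TATAAA box, the AP-1 motif TGANTCA and the core TGACNNNGC of the antioxidant response element that NRF2 binds.
Col3a1, chr1:45311288-45311537, plus strand: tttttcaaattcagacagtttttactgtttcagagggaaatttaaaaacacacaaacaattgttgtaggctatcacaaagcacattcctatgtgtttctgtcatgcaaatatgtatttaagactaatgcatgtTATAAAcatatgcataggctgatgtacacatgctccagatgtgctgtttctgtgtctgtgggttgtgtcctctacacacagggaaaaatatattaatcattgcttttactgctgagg
Col5a1, chr2:27886175-27886424, plus strand: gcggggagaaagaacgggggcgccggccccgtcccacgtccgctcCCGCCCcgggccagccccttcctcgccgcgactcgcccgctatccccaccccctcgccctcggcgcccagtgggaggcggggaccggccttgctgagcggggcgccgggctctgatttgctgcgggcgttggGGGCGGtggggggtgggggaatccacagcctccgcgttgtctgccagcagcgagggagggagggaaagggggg
Col6a3, chr1:90843972-90844221, minus strand: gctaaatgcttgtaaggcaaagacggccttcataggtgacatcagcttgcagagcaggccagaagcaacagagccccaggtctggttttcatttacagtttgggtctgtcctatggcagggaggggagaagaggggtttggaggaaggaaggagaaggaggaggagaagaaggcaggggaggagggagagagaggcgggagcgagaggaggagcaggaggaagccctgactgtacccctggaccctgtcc
Col5a3, chr9:20815068-20815317, minus strand: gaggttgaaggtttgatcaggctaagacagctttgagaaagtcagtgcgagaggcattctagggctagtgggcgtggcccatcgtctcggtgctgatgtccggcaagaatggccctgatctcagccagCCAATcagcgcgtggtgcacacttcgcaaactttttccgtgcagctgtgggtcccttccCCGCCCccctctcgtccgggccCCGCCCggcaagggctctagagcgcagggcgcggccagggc
Col13a1, chr10:61979109-61979358, minus strand: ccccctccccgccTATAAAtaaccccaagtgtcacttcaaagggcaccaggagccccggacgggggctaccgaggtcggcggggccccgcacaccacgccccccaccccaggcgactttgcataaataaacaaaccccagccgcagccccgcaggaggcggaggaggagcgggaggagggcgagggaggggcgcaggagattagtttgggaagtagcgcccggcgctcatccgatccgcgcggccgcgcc
The 3 chains that fell have no motif of the 5 in common in these windows. Col3a1 holds TATAAA at bases -117 to -112, Col5a1 holds GGGCGG once on each strand, and Col6a3 holds none of them. Col5a3 holds CCAAT and, on the opposite strand, GGGCGG at 2 places, and Col13a1 holds TATAAA at -237 to -232. No match overlaps another in these 5 windows. RefSeq windows were found for 35 of the 44 genes, 38 windows in all. GGGCGG occurred in 57.9% of the collagen windows, against 32.7% of all 32851 windows of the same length. The other shares were 34.2% against 33.8% for CCAAT, 13.2% against 12.4% for TATAAA, 2.63% against 6.75% for TGANTCA and 15.8% against 10.2% for TGACNNNGC. These are matches of letters, given as a description.

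Library totals were 28161057 to 33852338 reads. Levels are given as CPM, reads scaled to a common library size with TMM factors, or, where chains are compared with each other, as TPM, the deposited values corrected for gene length. The hepatocyte markers, albumin among them, summed to 32521 to 49303 CPM in CDDO-Me livers, 31480.5 to 51928 CPM in NASH vehicle livers and 76956 to 94342 CPM in control livers, and no marker of 7 cell types looked at was at 0 in any group. In bulk RNA, fewer cells of a type and less RNA per cell cannot be told apart. Control replicate 3 and CDDO-Me replicate 4 stood apart. The 8 smooth muscle markers summed to 68.97, 43.98, 29.3 and 179 CPM in CDDO-Me livers 1 to 4, 68.2 to 73.6 CPM in NASH vehicle livers and 25.6, 17.9, 448 and 24.8 CPM in control livers 1 to 4. The 8 markers of portal fibroblasts and mesothelium summed to 261, 174, 184 and 325, to 188, 374, 333 and 393 and to 81.8, 58.7, 438 and 66.6 CPM in the same order of groups. NASH vehicle replicate 1 had the highest hepatocyte sum of its group, 51928 CPM against 31480.5 to 36267 CPM in the other 3.

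Summed collagen RNA was lower in all CDDO-Me than in all NASH vehicle livers, and its place against control livers depended on the scale. The TPM of all 44 chains summed to 749, 583, 462 and 848 in CDDO-Me livers, 1146, 1282, 1594 and 1496 in NASH vehicle livers and 368, 388, 460.1 and 399 in control livers. On this scale no 2 groups overlapped, although the lowest CDDO-Me library was close to the highest control library. As TMM-scaled CPM the same sums were 2059, 1835, 1558 and 2207 CPM in CDDO-Me livers, 3156, 3543, 3663 and 3869.9 CPM in NASH vehicle livers and 1655, 1696, 1771 and 1691 CPM in control livers. There CDDO-Me overlapped control, with CDDO-Me replicate 3 below every control library, and NASH vehicle stayed above both. The fibrillar chains summed to 279, 169, 123 and 338 in CDDO-Me livers, 425, 601, 731 and 677 in NASH vehicle livers and 43.7, 27.9, 58.5 and 44.6 in control livers, without overlap, and CDDO-Me replicates 1 and 4 were the nearest to the NASH vehicle range. Type IV chains summed to 85.9, 66.8, 50.05 and 109.8 in CDDO-Me livers, 118, 166, 203 and 199 in NASH vehicle livers and 13.8, 14.4, 30.4 and 17.3 in control livers, also without overlap, and neither of these 2 classes overlapped on the CPM scale.

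The make-up of the collagen RNA differed between groups. Of the summed collagen TPM, fibrillar chains held 33.1% ± 6.35 in CDDO-Me livers, 43.8% ± 4.53 in NASH vehicle livers and 10.7% ± 2.45 in control livers (SD, n = 4 each). Type IV held 11.7% ± 0.901 in CDDO-Me livers, 12.3% ± 1.38 in NASH vehicle livers and 4.61% ± 1.37 in control livers. The multiplexins, nearly all of it Col18a1, held 40.4% ± 8.91 in CDDO-Me livers, 28.2% ± 7.29 in NASH vehicle livers and 78.3% ± 4.59 in control livers. Col18a1 had the highest mean TPM of all chains in each group, with 248 ± 21.7 TPM in CDDO-Me livers, 358 ± 57.5 TPM in NASH vehicle livers and 313 ± 23.6 TPM in control livers. Col3a1 came next in each group, with 81.6 ± 36.8 TPM in CDDO-Me livers, 237.6 ± 62.9 TPM in NASH vehicle livers and 11.7 ± 5.68 TPM in control livers. Col1a1 ranked 3 in CDDO-Me and in NASH vehicle livers and 8 in control livers. The spread around Col1a1 was wide, with 71.3 ± 34.5 TPM in CDDO-Me livers, 213 ± 40.9 TPM in NASH vehicle livers and 6.41 ± 3.83 TPM in control livers. Sums and shares are descriptions and carry no test.

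**Figure D1:**
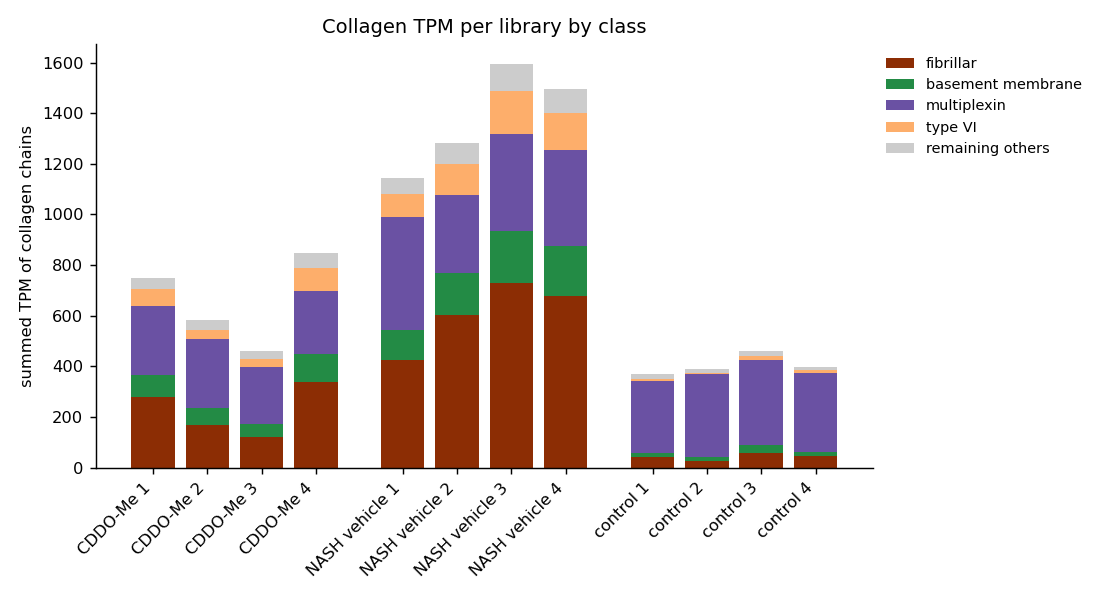
Summed TPM of the collagen chains (bars from 0) in each library, CDDO-Me, NASH vehicle and control from left to right, split by class; the remaining others are all chains outside the 4 classes named. The fibrillar part is 123 to 338 TPM in CDDO-Me livers, 425 to 731 TPM in NASH vehicle livers and 27.9 to 58.5 TPM in control livers, and the multiplexin part is 225 to 274, 310.4 to 448 and 283 to 338 TPM in the same order.

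Reads sufficed to test 35 chains, in one model of all 16456 genes with enough reads. The 9 chains not tested (Col2a1, Col6a4, Col9a1, Col10a1, Col11a1, Col17a1, Col19a1, Col22a1 and Col26a1) had 4 to 43 reads each over the 12 libraries, 166 in all. In CDDO-Me against NASH vehicle livers, 13 of the 35 chains fell, 1 rose and 21 did not pass the test (edgeR's quasi-likelihood test, Benjamini-Hochberg adjusted p under 0.05). Among all genes tested 7.24% were called lower, 9.39% higher and 16.6% in either direction. The 35 chains had a median log2 fold change of -0.91, against -0.01 for all genes tested, and 31 of them were negative. For 15 chains every CDDO-Me library lay below every NASH vehicle library, and for 1 chain every one lay above (10.2% and 11.4% of all genes tested). The 15 are the 13 called lower plus Col5a2 and Col6a1.

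The same test in NASH vehicle against control livers called 23 chains higher and 5 lower, and 7 did not pass. Here 29.6% of all genes tested were called higher, 30% lower and 59.7% in either direction. The median of the 35 chains was 2.06, against -0.01 for all genes. For 22 chains no NASH vehicle library overlapped a control library on the higher side, and for 4 on the lower side (27% and 27.4% of all genes tested, 54.4% together). Both comparisons use the NASH vehicle libraries, so a chain's values in them are given side by side and not related to each other.

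These directions are relative to the other genes. TMM scaling sets the typical gene near 0, whereas by library totals alone the median of all genes tested was 0.62 in NASH vehicle against control and -0.16 in CDDO-Me against NASH vehicle. On that scale 27 chains were called higher and 1 lower in NASH vehicle against control livers, where 60.3% of all genes tested were called higher and 8.06% lower. In CDDO-Me against NASH vehicle livers 1 chain was called higher and 13 lower, with 5.63% and 9.7% of all genes tested.

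Single libraries moved the count of chains that fell in CDDO-Me against NASH vehicle livers. It was 8 without NASH vehicle replicate 2, 3 or 4 or without CDDO-Me replicate 2, where Col1a1, Col1a2, Col4a3, Col6a2 and Col8a1 lost their call. Without control replicate 3 and CDDO-Me replicate 4 it was 21, the 13 among them. Of all genes tested, 3.67% to 8.92% were called lower with single libraries left out and 12.1% without those 2 libraries. The other 8 of the 13 (Col3a1, Col4a1, Col4a2, Col4a4, Col5a1, Col6a3, Col14a1 and Col15a1) were called lower in each of the 24 alternative analyses run.

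**Figure D2:**
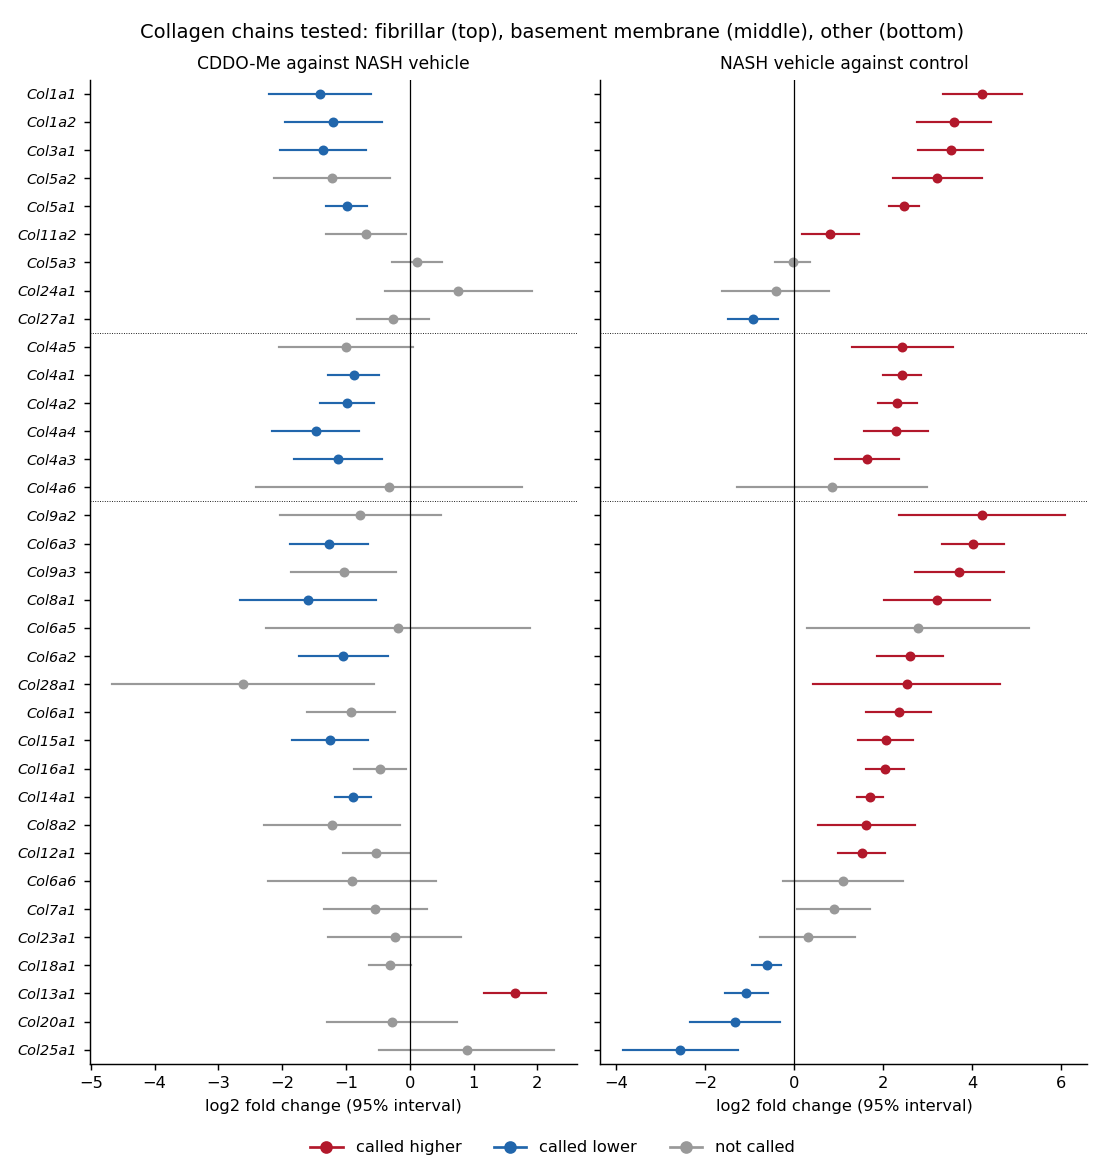
Log2 fold changes (points) with 95% intervals (lines) of the 35 tested chains, CDDO-Me against NASH vehicle on the left and NASH vehicle against control on the right, with fibrillar, basement membrane and other chains from top to bottom; red is called higher, blue called lower and grey not called. On the left 13 chains are blue and only Col13a1 is red, and on the right 23 are red and 5 are blue.

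Of the 9 fibrillar chains tested, 4 fell in CDDO-Me against NASH vehicle livers (Col1a1, Col1a2, Col3a1 and Col5a1) and none rose. In NASH vehicle against control livers 6 rose (these 4, Col5a2 and Col11a2) and 1 fell (Col27a1). Col1a1 (chr11:94936224-94953042, plus strand), which encodes the alpha1 chain of type I, was at 201, 131, 102 and 232 CPM in CDDO-Me livers, 362, 453, 453 and 506 CPM in NASH vehicle livers and 23.1, 9.03, 39.5 and 22.3 CPM in control livers. No library of one group reached the range of another, and within the CDDO-Me group replicates 1 and 4 were the high ones. Col1a1 had log2 fold changes of -1.41 ± 0.36 in CDDO-Me against NASH vehicle livers (SE; edgeR adjusted p = 0.0219) and 4.23 ± 0.41 in NASH vehicle against control livers (adjusted p = 4.72e-06). That is an 18.8-fold higher level in NASH vehicle than in control livers and a 2.66-fold lower level in CDDO-Me than in NASH vehicle livers.

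Col1a2 (chr6:4504814-4541544, plus strand), the alpha2 chain of type I, was at 184, 125, 106 and 226 CPM in CDDO-Me livers, 273, 411, 381 and 411 CPM in NASH vehicle livers and 32.4, 13.6, 51.2 and 24.7 CPM in control livers. The same CDDO-Me and control libraries were high and low as for Col1a1, and the groups did not overlap. Col1a2 had log2 fold changes of -1.20 ± 0.35 in CDDO-Me against NASH vehicle livers (SE; edgeR adjusted p = 0.0353) and 3.60 ± 0.38 in NASH vehicle against control livers (adjusted p = 9.1e-06). Both type I calls in CDDO-Me against NASH vehicle livers were lost without NASH vehicle replicate 2, 3 or 4 and without CDDO-Me replicate 2 or 3, and that of Col1a2 also without CDDO-Me replicate 1. Over 24 alternatives the adjusted p of Col1a1 ranged from 0.000236 to 0.0743 and that of Col1a2 from 0.00134 to 0.108.

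Col3a1 (chr1:45311538-45349706, plus strand), the single chain of type III, was at 332, 244, 181 and 393 CPM in CDDO-Me livers, 511, 802, 810.2 and 825 CPM in NASH vehicle livers and 64.8, 33.2, 98.6 and 61.1 CPM in control livers. NASH vehicle replicate 1 was well below the other 3 of its group and still above every CDDO-Me library. Col3a1 had log2 fold changes of -1.36 ± 0.31 in CDDO-Me against NASH vehicle livers (SE; edgeR adjusted p = 0.0115) and 3.51 ± 0.34 in NASH vehicle against control livers (adjusted p = 3.25e-06). Over the 24 alternatives its adjusted p in CDDO-Me against NASH vehicle livers stayed between 3.87e-05 and 0.0433.

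Type V chains lie within type I fibrils and limit their width. Col5a1 (chr2:27886425-28039514, plus strand) was at 34.95, 25.6, 22.6 and 37.7 CPM in CDDO-Me livers, 50.7, 56.6, 66.8 and 66.1 CPM in NASH vehicle livers and 11.2, 10.05, 11.02 and 11.4 CPM in control livers. The control libraries were nearly equal, and the 3 groups did not overlap. Col5a1 had log2 fold changes of -0.99 ± 0.15 in CDDO-Me against NASH vehicle livers (SE; edgeR adjusted p = 0.000649) and 2.46 ± 0.16 in NASH vehicle against control livers (adjusted p = 7.06e-08).

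Col5a2 (chr1:45374321-45503282, minus strand), which lies tail to tail with Col3a1, 24614 bases apart, was at 23.5, 17.2, 15.9 and 33.3 CPM in CDDO-Me livers, 38.5, 54.2, 55.2 and 61.4 CPM in NASH vehicle livers and 5.87, 1.57, 10.8 and 4.02 CPM in control livers. All CDDO-Me libraries were below all NASH vehicle libraries, yet the difference did not pass the test. Col5a2 had log2 fold changes of -1.22 ± 0.41 in CDDO-Me against NASH vehicle livers (SE; edgeR adjusted p = 0.0676) and 3.21 ± 0.45 in NASH vehicle against control livers (adjusted p = 0.000107). It passed in 7 of the 24 alternatives, among them those without control replicate 2, control replicate 3 or CDDO-Me replicate 4.

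Col5a3 (chr9:20770050-20815067, minus strand), the alpha3 chain of type V, did not follow the other type V chains. It was at 54.6, 56.01, 38.8 and 38.6 CPM in CDDO-Me livers, 51.2, 36.02, 50.1 and 36.96 CPM in NASH vehicle livers and 44.8, 45.99, 32.7 and 55.5 CPM in control livers. The 3 groups overlapped. Col5a3 had log2 fold changes of 0.11 ± 0.18 in CDDO-Me against NASH vehicle livers (SE; edgeR adjusted p = 0.732) and -0.04 ± 0.18 in NASH vehicle against control livers (adjusted p = 0.87). The 95% intervals were -0.29 to 0.50 and -0.43 to 0.36, so differences as large as that of Col5a1 lie outside them. By library totals Col5a3 was at -0.05 and 0.60 in these comparisons, near the median of all genes on that scale, and the second was called higher (adjusted p = 0.0113), as it was on both TPM scales tried (adjusted p = 0.00318 and 0.00299).

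Col27a1 (chr4:63214004-63334991, plus strand), a fibrillar chain with a short helix known from cartilage, was at 31.6, 15.96, 15.7 and 29.4 CPM in CDDO-Me livers, 22.6, 30.6, 28.2 and 30.1 CPM in NASH vehicle livers and 74.3, 41.2, 41.3 and 56.6 CPM in control livers. Control libraries were the highest, and CDDO-Me and NASH vehicle libraries overlapped. Col27a1 had log2 fold changes of -0.26 ± 0.26 in CDDO-Me against NASH vehicle livers (SE; edgeR adjusted p = 0.537) and -0.94 ± 0.26 in NASH vehicle against control livers (adjusted p = 0.00786). By library totals it was at -0.30 in NASH vehicle against control livers and was not called. The remaining fibrillar chains had few reads: Col11a2 rose in NASH vehicle against control livers (0.81 ± 0.30, edgeR adjusted p = 0.0307) and was at -0.69 ± 0.29 in CDDO-Me against NASH vehicle livers (adjusted p = 0.13). Col24a1 was at -0.42 ± 0.56 and 0.76 ± 0.54 in these comparisons and was called in neither.

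The 8 stellate cell markers summed to 228 to 272 CPM in CDDO-Me livers, 238.5 to 359.9 CPM in NASH vehicle livers and 124 to 148 CPM in control livers. Of these 8 genes 2 (Reln and Pdgfrb) were called lower in CDDO-Me against NASH vehicle livers, and 7 were called higher in NASH vehicle against control livers. Of the 8 markers of portal fibroblasts and mesothelium, whose sums are given above, none was called in CDDO-Me against NASH vehicle livers and 3 (Wt1, Eln and Fbln2) were called higher in NASH vehicle against control livers. Among all genes tested 7.24% were called lower in the first of these comparisons and 29.6% higher in the second. The 8 cholangiocyte and gallbladder markers summed to 756, 403, 381 and 861 CPM in CDDO-Me livers 1 to 4, to 455, 1097, 755 and 989 CPM in NASH vehicle livers and to 54.2, 45.3, 366 and 83.2 CPM in control livers. Their part in the changes of the chains was not tested.

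**Figure D3:**
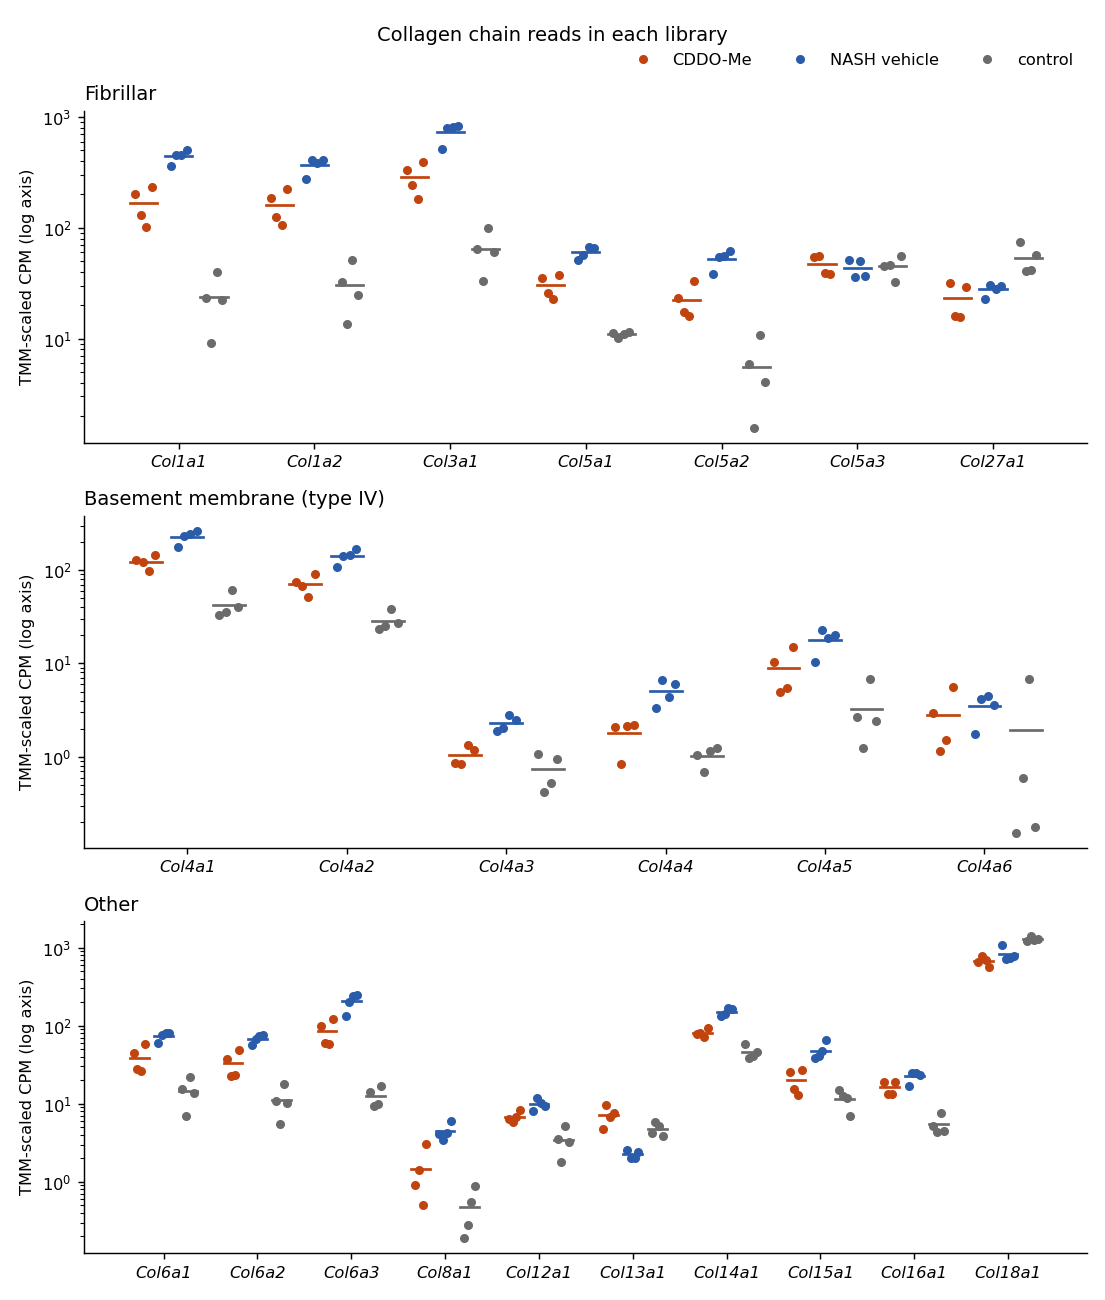
TMM-scaled CPM (log axis) of 23 collagen chains in each of the 12 libraries, with CDDO-Me, NASH vehicle and control from left to right for each chain; points are libraries and short lines are group means. CPM are not corrected for gene length. Col1a1 lies at 102 to 232 CPM in CDDO-Me livers, 362 to 506 CPM in NASH vehicle livers and 9.03 to 39.5 CPM in control livers, whereas the groups of Col5a3 overlap and Col13a1 is lowest in NASH vehicle livers.

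Of the 6 basement membrane chains, 4 fell in CDDO-Me against NASH vehicle livers (Col4a1 to Col4a4) and none rose, and 5 rose in NASH vehicle against control livers (Col4a1 to Col4a5). Col4a1 and Col4a2 encode the common type IV network, and their genes lie head to head with an overlap of 22 bases. Col4a1 (chr8:11198423-11312826, minus strand), of whose reads 71.9% were unique, was at 127, 122, 97.9 and 146 CPM in CDDO-Me livers, 177, 233, 241 and 259.8 CPM in NASH vehicle livers and 33.4, 35.6, 60.7 and 40.6 CPM in control livers. Among control libraries replicate 3 was highest, and the 3 groups did not overlap. Col4a1 had log2 fold changes of -0.88 ± 0.19 in CDDO-Me against NASH vehicle livers (SE; edgeR adjusted p = 0.00651) and 2.42 ± 0.20 in NASH vehicle against control livers (adjusted p = 4.96e-07).

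Col4a2 (chr8:11312805-11449287, plus strand) was at 74.2, 68.1, 51.98 and 90.7 CPM in CDDO-Me livers, 107, 143, 145 and 169.8 CPM in NASH vehicle livers and 23.1, 25.1, 38.2 and 27.03 CPM in control livers. Its libraries ranked as those of Col4a1 did in every group, again with the 3 groups apart. Col4a2 had log2 fold changes of -0.99 ± 0.19 in CDDO-Me against NASH vehicle livers (SE; edgeR adjusted p = 0.00436) and 2.32 ± 0.20 in NASH vehicle against control livers (adjusted p = 1.06e-06).

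Col4a3, Col4a4 and Col4a5 form the network known from the filter of the kidney, and were much lower here. Col4a3 (chr1:82586921-82722059, plus strand) was at 0.851, 0.842, 1.35 and 1.17 CPM in CDDO-Me livers, 1.91, 2.03, 2.80 and 2.49 CPM in NASH vehicle livers and 1.07, 0.415, 0.518 and 0.938 CPM in control livers. CDDO-Me and control libraries overlapped, and all NASH vehicle libraries were higher. Col4a3 had log2 fold changes of -1.13 ± 0.32 in CDDO-Me against NASH vehicle livers (SE; edgeR adjusted p = 0.0279) and 1.64 ± 0.33 in NASH vehicle against control livers (adjusted p = 0.000779). Only 35.3% of its reads were unique, and on unique reads the log2 fold change in CDDO-Me against NASH vehicle livers was -1.45 and was not called (adjusted p = 0.0883).

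Col4a4 (chr1:82448423-82586849, minus strand), head to head with Col4a3 with 71 bases between them, was at 2.07, 0.842, 2.15 and 2.21 CPM in CDDO-Me livers, 3.37, 6.59, 4.39 and 5.99 CPM in NASH vehicle livers and 1.04, 0.691, 1.15 and 1.25 CPM in control livers. NASH vehicle libraries were all above the others, and CDDO-Me replicate 2 lay in the control range. Col4a4 had log2 fold changes of -1.48 ± 0.32 in CDDO-Me against NASH vehicle livers (SE; edgeR adjusted p = 0.00699) and 2.29 ± 0.33 in NASH vehicle against control livers (adjusted p = 5.78e-05). Col4a5 (chrX:141475385-141689234, plus strand) was at 10.3, 4.94, 5.40 and 15.1 CPM in CDDO-Me livers, 10.3, 22.7, 18.6 and 20.2 CPM in NASH vehicle livers and 2.65, 1.24, 6.84 and 2.41 CPM in control livers. CDDO-Me replicate 4 reached the NASH vehicle range. Col4a5 had log2 fold changes of -1.003 ± 0.48 in CDDO-Me against NASH vehicle livers (SE; edgeR adjusted p = 0.183) and 2.43 ± 0.51 in NASH vehicle against control livers (adjusted p = 0.00162).

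Col4a6, head to head with Col4a5 and 1308 bases away, had its highest level of all libraries in control replicate 3. That library was also the highest control library of Col4a1, Col4a2 and Col4a5. Col4a6 was at 2.92, 1.16, 1.53 and 5.56 CPM in CDDO-Me livers, 1.76, 4.17, 4.51 and 3.63 CPM in NASH vehicle livers and 0.154, 0.599, 6.80 and 0.179 CPM in control livers. CDDO-Me and NASH vehicle overlapped, control overlapped them only through replicate 3, and neither comparison was called. Col4a6 had log2 fold changes of -0.33 ± 0.95 in CDDO-Me against NASH vehicle livers (SE; edgeR adjusted p = 0.855) and 0.84 ± 0.97 in NASH vehicle against control livers (adjusted p = 0.477). Without control replicate 3 and CDDO-Me replicate 4 it was called higher in NASH vehicle against control livers, at 3.52. Endothelial cells also make type IV, and their 6 markers summed to 149.7 to 216 CPM in CDDO-Me livers, 71.7 to 139.7 CPM in NASH vehicle livers and 164 to 178 CPM in control livers. Of those markers 4 were called higher in CDDO-Me against NASH vehicle livers and 4 lower in NASH vehicle against control livers, with 9.39% and 30% of all genes tested. Their part in the type IV values was not tested.

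Of the 20 other chains tested, 5 fell in CDDO-Me against NASH vehicle livers, 1 rose and 14 were not called, and 12 rose and 4 fell in NASH vehicle against control livers. The main type VI chains, which form beaded filaments around cells, were among the most abundant. Col6a1 (chr10:76708792-76726168, minus strand) was at 44.2, 27.9, 26.03 and 57.5 CPM in CDDO-Me livers, 59.4, 75.9, 79.6 and 80.6 CPM in NASH vehicle livers and 15.4, 6.96, 21.9 and 13.5 CPM in control livers. The 3 groups were apart, but the difference between CDDO-Me and NASH vehicle did not pass the test. Col6a1 had log2 fold changes of -0.92 ± 0.31 in CDDO-Me against NASH vehicle livers (SE; edgeR adjusted p = 0.0689) and 2.35 ± 0.33 in NASH vehicle against control livers (adjusted p = 9.97e-05).

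Col6a2 (chr10:76595762-76623630, minus strand), on the same strand as Col6a1 and 85161 bases away, was at 37.9, 22.8, 23.3 and 48.3 CPM in CDDO-Me livers, 55.7, 67.7, 74.1 and 75.2 CPM in NASH vehicle livers and 10.8, 5.44, 18.04 and 10.3 CPM in control livers. Its groups did not overlap either, and its call lay at the edge of the threshold. Col6a2 had log2 fold changes of -1.04 ± 0.32 in CDDO-Me against NASH vehicle livers (SE; edgeR adjusted p = 0.0453) and 2.61 ± 0.34 in NASH vehicle against control livers (adjusted p = 5.38e-05). It was lost in 12 of the 24 alternatives, where adjusted p was 0.05004 to 0.131.

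Col6a3 (chr1:90765923-90843971, minus strand) was at 98.4, 60.3, 58.9 and 121 CPM in CDDO-Me livers, 132, 199, 243 and 244 CPM in NASH vehicle livers and 14.3, 9.26, 9.87 and 16.9 CPM in control livers. The groups did not overlap, although CDDO-Me replicate 4 came close to NASH vehicle replicate 1. Col6a3 had log2 fold changes of -1.27 ± 0.28 in CDDO-Me against NASH vehicle livers (SE; edgeR adjusted p = 0.00989) and 4.02 ± 0.32 in NASH vehicle against control livers (adjusted p = 8.51e-07). Col6a5 and Col6a6 were called in neither comparison, with log2 fold changes of -0.18 ± 0.95 and -0.91 ± 0.61 in CDDO-Me against NASH vehicle livers.

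FACIT collagens sit on the surface of fibrils. Col14a1 (chr15:55307750-55520803, plus strand) was the most abundant of them, at 77.1, 81.2, 72.2 and 93.03 CPM in CDDO-Me livers, 131, 139.8, 166 and 162 CPM in NASH vehicle livers and 58.1, 38.9, 41.4 and 45.4 CPM in control livers. No groups overlapped. Col14a1 had log2 fold changes of -0.89 ± 0.13 in CDDO-Me against NASH vehicle livers (SE; edgeR adjusted p = 0.000586) and 1.70 ± 0.13 in NASH vehicle against control livers (adjusted p = 3.12e-07).

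Col12a1 (chr9:79598991-79718831, minus strand) was at 6.46, 5.86, 6.71 and 8.22 CPM in CDDO-Me livers, 8.10, 11.7, 10.2 and 9.35 CPM in NASH vehicle livers and 3.53, 1.80, 5.14 and 3.26 CPM in control livers. CDDO-Me replicate 4 just exceeded the lowest NASH vehicle library. Col12a1 had log2 fold changes of -0.53 ± 0.24 in CDDO-Me against NASH vehicle livers (SE; edgeR adjusted p = 0.151) and 1.51 ± 0.25 in NASH vehicle against control livers (adjusted p = 0.000155). Col16a1 (chr4:130047840-130099283, plus strand) was at 19.003, 13.5, 13.3 and 19.1 CPM in CDDO-Me livers, 17.04, 24.9, 24.7 and 23.3 CPM in NASH vehicle livers and 5.26, 4.33, 7.65 and 4.51 CPM in control livers, with a like overlap between CDDO-Me and NASH vehicle and none with control. Col16a1 had log2 fold changes of -0.47 ± 0.19 in CDDO-Me against NASH vehicle livers (SE; edgeR adjusted p = 0.111) and 2.04 ± 0.20 in NASH vehicle against control livers (adjusted p = 2.28e-06).

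Col9a2 and Col9a3, FACIT chains known from cartilage, had few reads and rose in NASH vehicle against control livers. Col9a3 was at 1.49, 0.772, 1.09 and 1.92 CPM in CDDO-Me livers, 1.07, 4.39, 2.67 and 2.76 CPM in NASH vehicle livers and 0.230, 0.184, 0.222 and 0.179 CPM in control livers. Control libraries were the lowest, and CDDO-Me overlapped NASH vehicle. Col9a3 had log2 fold changes of -1.04 ± 0.39 in CDDO-Me against NASH vehicle livers (SE; edgeR adjusted p = 0.0822) and 3.71 ± 0.47 in NASH vehicle against control livers (adjusted p = 1.62e-05). Col9a2 had 34 reads over the CDDO-Me libraries, 68 over the NASH vehicle libraries and 2 over the control libraries, and no fold is given for it.

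Network collagen Col8a1 (chr16:57624258-57754737, minus strand), known from vessel walls, was at 0.904, 1.40, 0.510 and 3.04 CPM in CDDO-Me livers, 4.05, 3.46, 4.27 and 6.04 CPM in NASH vehicle livers and 0.192, 0.277, 0.555 and 0.894 CPM in control livers. NASH vehicle libraries were all the highest, and CDDO-Me replicate 3 lay in the control range. Col8a1 had log2 fold changes of -1.60 ± 0.49 in CDDO-Me against NASH vehicle livers (SE; edgeR adjusted p = 0.042) and 3.21 ± 0.55 in NASH vehicle against control livers (adjusted p = 0.000234). The call in CDDO-Me against NASH vehicle livers was lost without any single NASH vehicle library and without CDDO-Me replicate 1, 2 or 3. Col8a2, the other tested chain of this class, rose in NASH vehicle against control livers (1.62 ± 0.51, edgeR adjusted p = 0.0141) and was at -1.23 ± 0.50 in CDDO-Me against NASH vehicle livers (adjusted p = 0.109), with overlapping groups in both.

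The multiplexins parted. Col15a1 (chr4:47208161-47313167, plus strand), found at the border of basement membranes, was at 25.2, 15.3, 13.1 and 26.7 CPM in CDDO-Me livers, 38.2, 41.02, 48.03 and 64.7 CPM in NASH vehicle livers and 14.97, 12.4, 11.7 and 7.02 CPM in control livers. NASH vehicle libraries were above all others, and CDDO-Me overlapped control. Col15a1 had log2 fold changes of -1.25 ± 0.27 in CDDO-Me against NASH vehicle livers (SE; edgeR adjusted p = 0.00945) and 2.06 ± 0.28 in NASH vehicle against control livers (adjusted p = 6.5e-05).

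Col18a1 (chr10:77052178-77166548, minus strand), the precursor of endostatin, which hepatocytes are known to make, was at 656, 778, 689 and 559 CPM in CDDO-Me livers, 1087, 707, 734 and 789 CPM in NASH vehicle livers and 1202, 1386, 1239 and 1271 CPM in control livers. Control libraries were the highest, and CDDO-Me and NASH vehicle overlapped. Col18a1 had log2 fold changes of -0.31 ± 0.15 in CDDO-Me against NASH vehicle livers (SE; edgeR adjusted p = 0.194) and -0.62 ± 0.15 in NASH vehicle against control livers (adjusted p = 0.00328). Whether Col18a1 was called in CDDO-Me against NASH vehicle livers depends on scaling. It was called lower there by library totals (-0.47, edgeR adjusted p = 0.0121) and on both TPM scales (-0.52 each, limma-trend adjusted p = 0.00754 and 0.00904). The fall in NASH vehicle against control livers depends on scaling too. By library totals the log2 fold change of Col18a1 was 0.00086 and it was not called, and its mean TPM was higher in NASH vehicle than in control livers. All 6 hepatocyte markers were called lower in NASH vehicle against control livers too, as were 30% of all genes tested. The summed levels of these markers are given above, and their part in this result was not tested. Of Col18a1 reads 82.3% were unique, and the gene overlaps Slc19a1 on the other strand. The strand of the counting is not given, so reads of the pair cannot be told apart.

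Col13a1 (chr10:61838236-61979108, minus strand), a transmembrane collagen of cell contacts, was the only chain called higher in CDDO-Me against NASH vehicle livers and one of the 5 called lower in NASH vehicle against control livers. It was at 4.70, 9.57, 6.71 and 7.51 CPM in CDDO-Me livers, 2.59, 2.00, 2.04 and 2.41 CPM in NASH vehicle livers and 4.26, 5.90, 5.18 and 3.84 CPM in control livers. Every NASH vehicle library was below every library of the other groups, and CDDO-Me overlapped control. Col13a1 had log2 fold changes of 1.65 ± 0.23 in CDDO-Me against NASH vehicle livers (SE; edgeR adjusted p = 0.000338) and -1.08 ± 0.22 in NASH vehicle against control livers (adjusted p = 0.000944). Its level was 3.15-fold higher in CDDO-Me than in NASH vehicle livers, and the call held in all 24 alternatives (adjusted p 6.77e-10 to 0.00327). By library totals it was at -0.46 in NASH vehicle against control livers and was not called, while in CDDO-Me against NASH vehicle livers it was at 1.49 and called. The summed endothelial markers were likewise lowest in the NASH vehicle libraries at 71.7 to 139.7 CPM, and their part in the result was not tested.

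Col20a1 and Col25a1 fell in NASH vehicle against control livers on few reads. Col20a1 (chr2:180986535-181018363, plus strand), a FACIT chain whose gene overlaps 9230112E08Rik on the same strand, was at 0.851, 0.526, 0.583 and 1.38 CPM in CDDO-Me livers, 0.357, 0.769, 1.25 and 1.70 CPM in NASH vehicle livers and 3.22, 1.94, 3.70 and 1.43 CPM in control livers. NASH vehicle replicate 4 reached the control range. Col20a1 had log2 fold changes of -0.28 ± 0.47 in CDDO-Me against NASH vehicle livers (SE; edgeR adjusted p = 0.734) and -1.33 ± 0.47 in NASH vehicle against control livers (adjusted p = 0.0244). Col25a1 (chr3:130131501-130599877, plus strand), a transmembrane chain known from neurons, was at 0.106, 0.316, 0.182 and 0.172 CPM in CDDO-Me livers, 0.119, 0.137, 0.147 and 0 CPM in NASH vehicle livers and 0.768, 0.599, 0.518 and 0.581 CPM in control livers. All control libraries were above all others, and NASH vehicle replicate 4 had no read. Col25a1 had log2 fold changes of 0.89 ± 0.64 in CDDO-Me against NASH vehicle livers (SE; edgeR adjusted p = 0.377) and -2.56 ± 0.60 in NASH vehicle against control livers (adjusted p = 0.00231).

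The remaining tested chains averaged between 0.242 CPM (Col9a2) and 2.75 CPM (Col4a6) over the 12 libraries. Col28a1 rose in NASH vehicle against control livers (2.52 ± 0.97, edgeR adjusted p = 0.0382) although its groups overlapped, and was at -2.62 ± 0.95 in CDDO-Me against NASH vehicle livers (adjusted p = 0.0784). Col7a1, the chain of anchoring fibrils, and Col23a1, a transmembrane chain, were called in neither comparison.

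In CDDO-Me against control livers 19 of the 35 chains rose, 4 fell and 12 were not called, where 26.2% of all genes tested were called higher, 23.6% lower and 49.8% in either direction. For 15 chains all CDDO-Me libraries were above all control libraries, and for 4 all were below (22.6% and 21.1% of all genes tested). The 19 included 5 fibrillar chains, 3 of type IV and 11 others. Col1a1 was at 2.82 ± 0.39, Col3a1 at 2.16 ± 0.32, Col4a1 at 1.53 ± 0.19 and Col6a3 at 2.75 ± 0.30 (log2 fold change ± SE; edgeR adjusted p = 0.0001, 0.000151, 2.53e-05 and 1.68e-05). No library of CDDO-Me livers overlapped a control library for these 4 chains. Col4a3 (0.51 ± 0.34) and Col4a4 (0.82 ± 0.33) were not called. The 4 chains that fell were Col18a1 (-0.93 ± 0.15), Col27a1 (-1.20 ± 0.26), Col20a1 (-1.61 ± 0.48) and Col25a1 (-1.67 ± 0.57). Of these Col18a1 alone was called by library totals, at -0.46, where 6.82% of all genes tested were called lower. Col13a1 was called higher at 0.57 ± 0.22 (edgeR adjusted p = 0.0444), a call lost in 12 of 24 alternatives (adjusted p 0.0532 to 0.167 in those). The higher calls of Col4a5, Col15a1 and Col8a1 were lost in 8, 7 and 6 alternatives. Groups overlapped for each of these and for Col13a1.

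Ratios between chains of one collagen do not depend on scaling, and they are given per library on the TPM scale, without a test. The ratio of Col1a1 to Col1a2 averaged 1.96 ± 0.0969 in CDDO-Me livers, 2.30 ± 0.177 in NASH vehicle livers and 1.44 ± 0.191 in control livers (SD, n = 4 each), and the ranges of the groups, 1.84 to 2.07 in CDDO-Me livers, 2.09 to 2.51 in NASH vehicle livers and 1.26 to 1.70 in control livers, did not overlap. Col3a1 stood lower relative to Col1a1 on the diet, where Col1a1 itself stood higher relative to Col1a2. Col3a1 to Col1a1 averaged 1.16 ± 0.0618 in CDDO-Me livers, 1.10 ± 0.118 in NASH vehicle livers and 1.96 ± 0.336 in control livers. CDDO-Me and NASH vehicle overlapped, and control was apart. The ratio of Col3a1 to Col1a2 was not computed. Col5a3 to Col5a1 averaged 2.09 ± 0.631 in CDDO-Me livers, 0.921 ± 0.242 in NASH vehicle livers and 5.31 ± 1.19 in control livers, and no groups overlapped.

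Within type IV and type VI some pairs kept closer ratios than others. Col4a1 to Col4a2 averaged 1.60 ± 0.111 in CDDO-Me livers, 1.47 ± 0.0580 in NASH vehicle livers and 1.35 ± 0.0586 in control livers. Col6a1 to Col6a2 averaged 2.22 ± 0.0826 in CDDO-Me livers, 2.06 ± 0.0420 in NASH vehicle livers and 2.49 ± 0.167 in control livers. Col6a3 to Col6a1 averaged 0.774 ± 0.0259 in CDDO-Me livers, 0.970 ± 0.134 in NASH vehicle livers and 0.338 ± 0.131 in control livers, with the control libraries apart at 0.162 to 0.449. The largest contrast among the ratios computed was that of Col1a1 to Col18a1, which averaged 0.287 ± 0.140 in CDDO-Me livers, 0.613 ± 0.163 in NASH vehicle livers and 0.0204 ± 0.0113 in control livers.

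**Figure D4:**
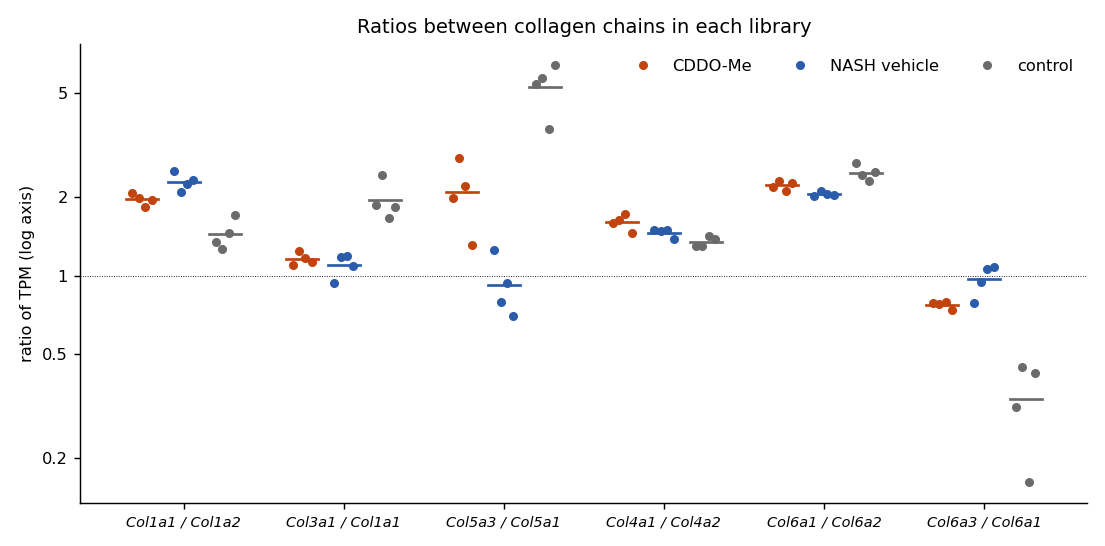
Ratios of TPM (log axis) for 6 pairs of chains in each library, with CDDO-Me, NASH vehicle and control from left to right; points are libraries, short lines are group means and the dotted line marks a ratio of 1. Col5a3 to Col5a1 lies at 1.31 to 2.84 in CDDO-Me livers, 0.700 to 1.25 in NASH vehicle livers and 3.65 to 6.43 in control livers, while Col6a1 to Col6a2 stays between 2.02 and 2.71 in all libraries.

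Intron reads, which lie in a gene but outside its exons, give a sparser readout of the same libraries and form part of the total gene reads. They sufficed to test 22 chains, in a model of 12587 genes. In CDDO-Me against NASH vehicle livers 1 chain was called higher, none lower and 21 not at all (edgeR, adjusted p under 0.05), where 1.7% of all genes tested were called higher, 0.469% lower and 2.17% in either direction. Col6a3 and Col14a1 were lower at an unadjusted p under 0.05, but their edgeR adjusted p were 0.426 and 0.424. The share of all genes at the unadjusted threshold was not counted. The median of the 22 chains was -0.38, against 0.08 for all genes tested. Col13a1 was the chain called, with summed intron reads of 153 in CDDO-Me livers, 50 in NASH vehicle livers and 75 in control livers and a log2 fold change of 1.81 ± 0.39 (SE; edgeR adjusted p = 0.00618).

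Intron reads of the fibrillar chains were few. Col1a1 had 66 in CDDO-Me livers, 124 in NASH vehicle livers and 15 in control livers, a log2 fold change of -0.68 ± 0.49 in CDDO-Me against NASH vehicle livers (edgeR adjusted p = 0.667). Col3a1 had 182 in CDDO-Me livers, 232 in NASH vehicle livers and 33 in control livers, at -0.17 ± 0.38 with a 95% interval of -0.95 to 0.62. Col6a3 had 596 in CDDO-Me livers, 1205 in NASH vehicle livers and 84 in control livers, at -0.83 ± 0.40 (edgeR adjusted p = 0.426). The interval of Col3a1 excludes its value in total gene reads, -1.36, but the difference between the readouts was not tested.

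In NASH vehicle against control livers intron reads called 15 of the 22 chains higher and 2 lower, where 26.1% of all genes tested were called higher, 5.33% lower and 31.4% in either direction and the median of all genes was 0.40. The 15 comprised 5 fibrillar chains, 5 of type IV and 5 others, with Col1a2 at 3.31 ± 0.54 and Col6a3 at 3.17 ± 0.45 (SE; edgeR adjusted p = 2.06e-05 and 7.32e-06). Col13a1 (-1.18 ± 0.40) and Col20a1 (-1.43 ± 0.48) were lower. Col4a6, not called by total gene reads, was called higher by intron reads, at 2.26 ± 0.57. In CDDO-Me against control livers 13 chains were called higher and 1 lower (26.5% of all genes tested were called higher, 3.28% lower and 29.8% called in either direction). There Col15a1 was at -0.81 ± 0.39 by intron reads, not called, and at 0.80 by total gene reads, called higher. The differences between its readouts were not tested.

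Genes that make and handle collagen were described from 4 lists. Of 18 genes for chain modification and folding 17 were tested, and 3 fell and 1 rose (Mia3) in CDDO-Me against NASH vehicle livers, and 7 rose and 3 fell in NASH vehicle against control livers, with medians of -0.22 and 0.19. For this list and those that follow, the shares of all genes tested were 7.24% lower and 9.39% higher in CDDO-Me against NASH vehicle livers, and 29.6% higher and 30% lower in NASH vehicle against control livers. Serpinh1, the collagen chaperone HSP47, averaged 86.1 ± 17.4 CPM in CDDO-Me livers, 156 ± 41.1 CPM in NASH vehicle livers and 30.5 ± 3.90 CPM in control livers (SD, n = 4 each). It fell in CDDO-Me against NASH vehicle livers at -0.86 ± 0.19 and rose in NASH vehicle against control livers at 2.36 ± 0.20 (SE; edgeR adjusted p = 0.00985 and 9.51e-07). P3h3, of the prolyl 3-hydroxylase family, was at -0.81 ± 0.21 and 2.31 ± 0.23 (adjusted p = 0.0203 and 2.23e-06).

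Of 13 genes for procollagen cleavage and crosslinking 11 were tested, and 5 fell and none rose in CDDO-Me against NASH vehicle livers, and 7 rose and 2 fell in NASH vehicle against control livers (medians -0.77 and 2.10). Loxl4, a lysyl oxidase, averaged 1.05 ± 0.171 CPM in CDDO-Me livers, 3.21 ± 0.826 CPM in NASH vehicle livers and 5.32 ± 1.61 CPM in control livers and fell in both comparisons, at -1.61 ± 0.28 and -0.73 ± 0.26 (edgeR adjusted p = 0.00161 and 0.0275). Pcolce, which enhances cleavage of the procollagen C-propeptide, fell at -0.77 ± 0.17 in CDDO-Me against NASH vehicle livers (adjusted p = 0.0094). In NASH vehicle against control livers the lowest p-values were those of Adamts14, a procollagen N-proteinase, at 2.48 ± 0.22, and Loxl2, at 2.36 ± 0.22 (adjusted p = 8.56e-07 and 1.62e-06). Bmp1, the main procollagen C-proteinase, was called lower in both comparisons, as Loxl4 was.

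Of 10 collagen receptors 9 were tested, and 2 fell and none rose in CDDO-Me against NASH vehicle livers, and 7 rose and none fell in NASH vehicle against control livers (medians -0.55 and 1.73). Mrc2, which takes up collagen into cells, was at -1.20 ± 0.32 and 3.66 ± 0.36, and Lair1, an inhibitory receptor of leukocytes, at -0.80 ± 0.24 and 3.70 ± 0.28 (edgeR adjusted p = 0.0238 and 5.39e-06 for Mrc2, 0.0371 and 2.61e-07 for Lair1). Of the 5 macrophage markers, 4 were called lower in CDDO-Me against NASH vehicle livers and 4 higher in NASH vehicle against control livers, with summed levels of 231 to 295 CPM in CDDO-Me livers, 414 to 638 CPM in NASH vehicle livers and 67.6 to 95.7 CPM in control livers, and their part in the receptor values was not tested. Of the 6 fibril partners, 3 fell and none rose in CDDO-Me against NASH vehicle livers, and 5 rose and none fell in NASH vehicle against control livers (medians -0.75 and 2.18). Sparc, a collagen-binding matrix protein, was at -0.87 ± 0.19 and 2.53 ± 0.20, and Bgn (biglycan) at -0.82 ± 0.20 and 2.22 ± 0.21 (edgeR adjusted p = 0.00754 and 3.27e-07 for Sparc, 0.0133 and 1.31e-06 for Bgn).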

How the data were processed

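Liver poly(A) RNA was sequenced in 12 paired-end libraries, per the labels' protocols. The authors deposited 1 table per library with whole read counts per gene (total, unique, exon, junction and intron reads), TPM and RPKM and, per the file headers, unique reads and intron reads as a fraction. The submitters' processing notes name the build GRCm 38; the sources used here give no aligner, counting tool or strand. RPKM and the fractions were not used.

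Total gene reads were fitted with edgeR 4.0.16 in R 4.3.3 (filterByExpr by group with minimum count 10, minimum total 15 and large n 10; TMM; robust quasi-likelihood model with 1 mean per group over all 12 libraries). Each comparison was two-sided, with Benjamini-Hochberg adjustment over all genes tested at 0.05. SE were taken from the F statistic (size of the log2 fold change over its root). Intron reads were fitted alike with the TMM factors of the total reads. CPM are TMM-scaled, and errors are SD over 4 libraries. Read counts limit the precision of chains with few reads. The test was tried on simulated counts. No 2 libraries of a group agreed within sampling noise.

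Members, gene lists and alternatives were chosen with earlier results of these data known. Values in every library are given for tested chains with a mean of at least 5 CPM, called in CDDO-Me against NASH vehicle, called lower in NASH vehicle against control, or with 0 reads in a whole group; Col4a6 and Col9a3 were added after their values were seen. Of each pathway list the 2 genes with the lowest p are named, and Mia3 and Bmp1 are named outside this rule.

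Alternatives were DESeq2 size factors, library totals, DESeq2 1.42.0, no filter, 50 reads in 4 libraries, the 8 libraries compared, a replicate block, unique or exon reads, limma 3.58.1 (limma-trend) on the authors' TPM as log2(TPM + 1) and log2(TPM + 0.1), and leaving libraries out. Sequences are RefSeq's, and gene positions in the files equal those of GENCODE M21 for all 44 chains. Tables used pandas 2.3.3 in Python 3.11.15, and plots matplotlib 3.10.9.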

Additional observations from a re-analysis of the deposited data

Results flagged for a closer look

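In 2 of 84 groups of 4 libraries, 1 library lay far from the other 3 (Dixon's criterion for a single outlying value), which chance gives for about 1 in 20 groups. Col3a1 had 510.7 CPM in NASH vehicle replicate 1, against 802 to 825 CPM in the other NASH vehicle libraries. Col4a4 had 0.842 CPM in CDDO-Me replicate 2, against 2.07 to 2.21 CPM in the other CDDO-Me libraries. The groups came from the 24 chains given per library by rule and from sums over classes. Col4a6 and Col9a3 were not among them, so the high value of Col4a6 in control replicate 3, given above, was not put to this criterion.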

How the results depend on the processing

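Read depth limits the chains with few reads, above all intron reads and the 9 chains not tested. Of the results for single chains recomputed under the alternatives, 1562 kept their direction and side of the threshold, 104 lost and 36 gained a call, and 19 turned direction. The cause was not tested in any case.

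The number of chains lower in CDDO-Me against NASH vehicle livers, 13 as reported, was 20 on log2(TPM + 1), 21 without control replicate 3 and CDDO-Me replicate 4, and 8 to 17 with single libraries left out, where 15.8%, 12.1% and 3.67% to 8.92% of all genes tested were lower, against 7.24% as reported. It was 16 by DESeq2 (11.2% of all genes). In NASH vehicle against control livers the 5 lower chains became 1 by library totals, 3 on exon reads and 0 on both TPM scales. There 8.06%, 30.9% and, on the TPM scales, 5.31% and 5.3% of all genes tested were called lower, against 30% as reported. In CDDO-Me against control livers the 4 lower chains became 1 by library totals and 1 on each TPM scale. The shares of all genes tested called lower were 6.82%, 4.93% and 4.96% in these settings, against 23.6% as reported. With single libraries left out, lower calls on intron reads ranged from 0 to 2 in both comparisons with control. Among all genes, those lower calls ranged from 482 of 12867 to 909 of 12981 in NASH vehicle against control livers. In CDDO-Me against control livers they ranged from 308 of 12834 to 519 of 12981.

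Col5a3 turned direction most often. In CDDO-Me against NASH vehicle livers it was -0.052 by library totals, -0.11 on log2(TPM + 1) and -0.12 on log2(TPM + 0.1). In NASH vehicle against control livers Col5a3 was 0.0014 with DESeq2 size factors, 0.0010 by DESeq2, 0.0021 with the 8 libraries compared, 0.60 by library totals, 0.74 and 0.78 on the TPM scales, and -0.16 to 0.080 with single libraries left out. In CDDO-Me against control livers Col5a3 was -0.054 to 0.19 with single libraries left out. Col18a1 in NASH vehicle against control livers was 0.00086 by library totals and 0.18 on both TPM scales. Col20a1 in CDDO-Me against NASH vehicle livers was -0.63 to 0.074 with single libraries left out, the highest without NASH vehicle replicate 4.

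The labels tie no libraries across groups. Same-numbered libraries of different groups deviated with correlations of -0.22 to 0.19. Differently numbered libraries were not set beside them, so these values cannot show whether the numbers pair libraries. With the replicate block 11 chains were lower in CDDO-Me against NASH vehicle livers. Col1a2 (edgeR adjusted p = 0.0617) and Col6a2 lost their calls. With that block 5.63% of all genes tested were called lower, against 7.24% as reported.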
